A study of Homo sapiens with 6 samples.

Results

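The 10 genes described here encode small heat shock proteins and the larger chaperones and cochaperones that work beside them: HSPB1, HSPB8, BAG3, HSPA1A, HSPA1B, HSPA8, HSPH1, DNAJB1, HSPD1 and HSP90AA1. They were taken by symbol from the 26389 genes of the deposited count table, in which each of the 10 symbols stood in 1 row, and all 10 passed the filter on low counts that left 14197 genes for testing. The samples were 6 RNA-seq libraries of HepG2, a human hepatocellular carcinoma line. In 3 of them (shCtrl) the cells had received a control hairpin plasmid, and in the other 3 (shTCTP) a plasmid expressing a short hairpin RNA against TCTP, the translationally controlled tumour protein encoded by TPT1. All 6 shared the plasmid transfection with Lipofectamine 2000, and a harvest at 48 h is stated for quantitative PCR. The 10 genes were proposed with results of these same libraries in view, namely their shTCTP against shCtrl values. They were thus selected on their fold changes in this comparison, whose values are given as a description, and nothing is supported with them.

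Heat shock proteins keep other proteins folded. The transcription factor HSF1 switches many of their genes on when unfolded protein accumulates, by binding heat shock elements, which are inverted repeats of a short GAA unit. Small heat shock proteins hold unfolding proteins, HSP70 proteins fold them with the help of HSP40 partners and nucleotide exchange factors, and HSP90 and the mitochondrial chaperonin HSP60 act on particular clients. HSPB8 works as a partner of BAG3, an HSP70 cochaperone, and the pair delivers misfolded proteins to autophagy. HSPB8 and BAG3 are themselves among the genes that heat shock can induce.

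The libraries held 25427614 to 30486409 reads assigned to genes. The library shTCTP 3 was the shallowest and stood apart, with a mean correlation across genes of 0.977 with the other 5, against 0.986 to 0.987 for those. It also held relatively more reads of long genes, with a slope of 0.13 log2 units per doubling of gene length, against -0.07 to 0.04 in the others. All 8 markers looked at for HepG2, a hepatocyte-like line, were present. Their deposited FPKM (fragments scaled for gene length and depth) were 10.8 to 2149 in shCtrl and 10.25 to 1892 in shTCTP libraries. PECAM1 (endothelium) and COL1A1 (fibroblasts) were at or under 0.21 FPKM, and PTPRC, DCN and SFTPC were not matched in the table. TPT1 itself stood at 2575, 2249 and 2290 CPM (counts scaled to a common depth with TMM factors) in shCtrl and 2032, 1807 and 1559 CPM in shTCTP libraries. Every shTCTP value lay below every shCtrl value. The estimated level was 75.9% of control and did not pass the threshold used throughout, an adjusted p under 0.05 over all tested genes (edgeR quasi-likelihood test, adjusted p = 0.396). In an exact permutation test (two-sided) p was 0.1, which is as small as 3 libraries against 3 allow. The labels do not state whether the 3 libraries of a condition are separate cultures, and every p-value here rests on the variation among these samples, part or all of which may be technical. In RNA from bulk cells, a change in the number of cells expressing a gene and a change in RNA per cell cannot be told apart.

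HSPB8 was the gene of the group that differed most between the conditions. It was a rare message in control cells, with 4.82, 3.50 and 4.92 CPM (147, 101 and 137 reads), and stood at 13.4, 16.3 and 13.5 CPM (392, 485 and 401 reads) in shTCTP cells. The groups were far apart, the lowest shTCTP library being more than double the highest shCtrl library. Mean levels were 4.41 ± 0.790 CPM in shCtrl and 14.4 ± 1.63 CPM in shTCTP libraries (SD, n = 3 each). The fold was 3.27 (95% interval 2.49 to 4.29), or 1.71 on the log2 scale (SE 0.19), with an edgeR adjusted p of 6.6e-05. Counted from the most positive log2 fold change down, HSPB8 ranked 35 among the 14197 tested genes. With any 1 library left out its log2 fold change lay between 1.56 and 1.79, and it passed the threshold each time. The gene (ENSG00000152137.6) lies on GRCh38 chromosome 12 from 119178642 to 119221131 on the plus strand. A processed pseudogene inside its span had 8 reads over the 6 libraries, 7 of them in shTCTP 2. An antisense gene annotated over HSPB8 on the minus strand was not matched among the counted genes.

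BAG3, which releases clients from HSP70 and links HSPB8 to it, differed in the same direction by much less. It stood at 30.8, 24.6 and 27.5 CPM in shCtrl and 33.9, 36.1 and 36.9 CPM in shTCTP libraries. The groups did not overlap, and the gap between their nearest libraries, shCtrl 1 and shTCTP 1, was about as large as the SD of the control group. The means were 27.6 ± 3.09 and 35.6 ± 1.58 CPM (SD, n = 3 each), a fold of 1.29 (95% interval 1.06 to 1.57), and the log2 fold change of 0.37 (SE 0.14) did not pass the threshold (edgeR adjusted p = 0.28). It did not pass in any of the 18 other settings tried, where it lay between 0.29 and 0.47. BAG3 (ENSG00000151929.9) lies on GRCh38 chromosome 10 from 119651370 to 119677819 on the plus strand, with no other annotated gene over it.

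**Figure D1:**
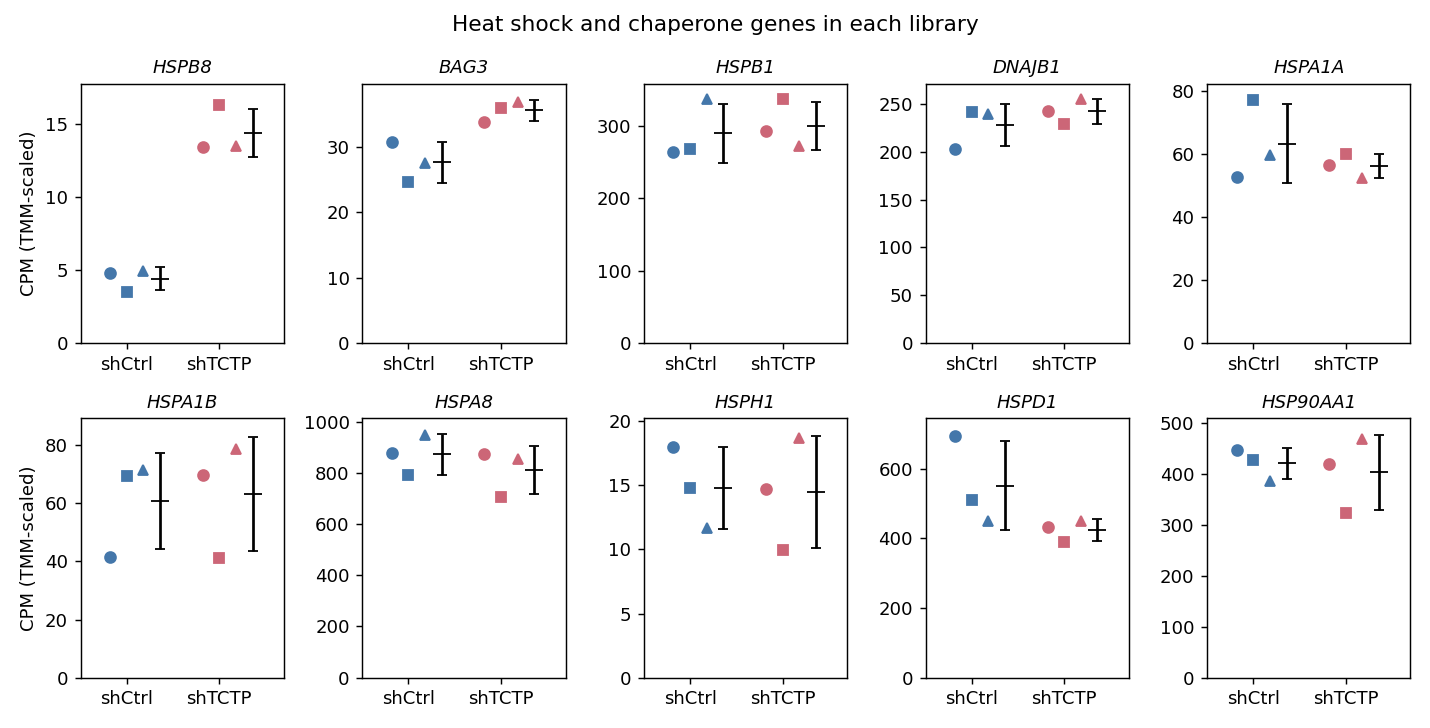
CPM of each of the 10 genes in every library (y axis, linear from 0), shCtrl in blue and shTCTP in red, circle, square and triangle being replicates 1, 2 and 3, with the mean and SD in black. The groups are separate for HSPB8 (3.50 to 4.92 against 13.4 to 16.3 CPM) and narrowly for BAG3, and they overlap for the other 8 genes.

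Of the 10 genes, 1 passed the threshold, HSPB8, and it was higher; over all tested genes 1.41% passed in either direction and 1.26% were higher. Groups that did not overlap were found for HSPB8 and BAG3 alone among the 10, both higher, against 17.1% of all tested genes in either direction and 9.83% higher. Since the genes were chosen with this contrast in view, nothing is read from these shares. The other 8 log2 fold changes lay between -0.38 (HSPD1) and 0.09 (DNAJB1), 3 of them positive and 5 negative. The median of the 10 was 0.01, that of all tested genes 0.00.

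The stretch before the start of transcription is shown for 4 of the genes, so that the letters that heat shock factors recognise can be looked for in each and the promoter of HSPB8 read beside that of an inducible HSP70 gene, a constitutive HSP70 gene and BAG3. Each is the 250 bases before the RefSeq start (build GRCh38.p14), 5′ to 3′ on the gene's own strand, with the GAA and TTC units of matched heat shock element letters in capitals. The positions are chr12:119178681-119178930 (plus strand) for HSPB8, chr10:119651130-119651379 (plus) for BAG3, chr6:31815293-31815542 (plus) for HSPA1A and chr11:123062137-123062386 (minus) for HSPA8.
HSPB8: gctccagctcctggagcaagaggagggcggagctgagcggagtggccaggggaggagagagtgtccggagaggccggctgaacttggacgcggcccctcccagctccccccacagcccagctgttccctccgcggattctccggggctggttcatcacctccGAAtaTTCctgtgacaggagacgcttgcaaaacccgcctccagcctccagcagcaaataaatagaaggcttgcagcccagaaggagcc
BAG3: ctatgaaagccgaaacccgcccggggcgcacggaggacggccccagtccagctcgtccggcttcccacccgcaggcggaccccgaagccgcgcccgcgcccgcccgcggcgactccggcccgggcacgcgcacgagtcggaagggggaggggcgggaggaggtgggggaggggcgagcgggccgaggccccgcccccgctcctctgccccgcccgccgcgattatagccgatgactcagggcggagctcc
HSPA1A: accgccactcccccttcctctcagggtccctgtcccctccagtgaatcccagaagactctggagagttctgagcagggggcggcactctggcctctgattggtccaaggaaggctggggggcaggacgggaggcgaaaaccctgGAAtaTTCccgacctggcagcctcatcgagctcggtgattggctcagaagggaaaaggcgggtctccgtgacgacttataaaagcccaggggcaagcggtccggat
HSPA8: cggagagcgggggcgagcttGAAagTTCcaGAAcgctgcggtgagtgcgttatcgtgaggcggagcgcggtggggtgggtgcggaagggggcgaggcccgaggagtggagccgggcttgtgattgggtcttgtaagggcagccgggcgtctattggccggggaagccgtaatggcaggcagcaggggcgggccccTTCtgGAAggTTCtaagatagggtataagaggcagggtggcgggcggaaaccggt

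In the HSPB8 window the match was GAATATTC, from 88 to 81 bases before the start, and HSPA1A held the same 8 letters from 106 to 99 bases before its start. HSPA1B, the neighbouring copy of HSPA1A, held them from 105 to 98 bases before. Those 8 letters were read from these windows and were not a form searched for. They stood in 0.29% of all 35116 RefSeq promoter windows of this length. The searched form that holds them, GAANNTTC, stood in 5.78%, and nothing is read from the shared letters. HSPA8 held a run of 3 units near each end of its window, GAAAGTTCCAGAA and TTCTGGAAGGTTC, and the BAG3 window held no match. The forms searched were GAANNTTC and TTCNNGAA, each its own reverse complement, and runs of 3 units, in which a further GAA or TTC follows a short form after 2 free bases. The longer forms are each other's reverse complement and contain the short ones. All 10 genes had a window, 14 in all because HSPD1, HSP90AA1 and DNAJB1 have several starts. A short form was found for 8 of the 10 genes, against 14.0% of all 27305 genes with a window, and a long form for HSPA8, HSPD1 and HSP90AA1, against 0.557%. BAG3 and HSPH1 had neither. A match is a run of letters and not a shown binding site. Elements outside these windows, or with other letters or spacing, were not looked for, so a window without a match may still hold one.

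HSPB1, the abundant small heat shock protein HSP27, did not follow HSPB8. It stood at 265, 269 and 338 CPM in shCtrl and 293, 337 and 272 CPM in shTCTP libraries. Both groups covered almost the same range, with shCtrl 3 and shTCTP 2 the highest. The log2 fold change was 0.05 (SE 0.15, 95% interval -0.26 to 0.36, edgeR adjusted p = 0.941), and its sign turned without shCtrl 1, shCtrl 2 or shTCTP 2.

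HSPA1A and HSPA1B, the stress-inducible HSP70 pair, lie side by side on chromosome 6 and share most of their sequence. Their GENCODE transcripts were 96.0% identical over the aligned bases, and 66.0% of all 150-base stretches of the HSPA1B transcript occurred unchanged in that of HSPA1A, so the split of reads between them is uncertain. HSPA1A stood at 52.9, 77.1 and 59.8 CPM in shCtrl and 56.5, 59.9 and 52.3 CPM in shTCTP libraries, a log2 fold change of -0.17 (SE 0.15). HSPA1B stood at 41.6, 69.4 and 71.4 CPM in shCtrl and 69.8, 41.1 and 78.7 CPM in shTCTP libraries. In each group 1 library was low for HSPA1B, shCtrl 1 and shTCTP 2, and the others were at 69.4 CPM or above. Its log2 fold change was 0.06 (SE 0.22), turning negative without shCtrl 1, shTCTP 1 or shTCTP 3. The sum of both genes is free of the split, though any shared reads left out of counting would be missing from it. The summed level of both genes was 94.4, 147 and 131 CPM in shCtrl and 126, 101 and 131 CPM in shTCTP libraries. As 1 gene they had a log2 fold change of -0.05 (edgeR adjusted p = 0.943). The share of the pair's reads given to HSPA1B ranged from 40.7% in shTCTP 2 to 60.1% in shTCTP 3, with 44.0% to 54.4% in shCtrl libraries.

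HSPA8, the constitutive HSP70 of the cytosol and the most abundant of the 10 messages by mean FPKM, stood at 879, 791 and 949 CPM in shCtrl and 873, 705 and 856 CPM in shTCTP libraries, or -0.11 as a log2 fold change (SE 0.16). HSPH1, the HSP110 exchange factor that works on HSP70, stood at 18.004, 14.8 and 11.6 CPM in shCtrl and 14.7, 9.96 and 18.7 CPM in shTCTP libraries, a log2 fold change of -0.04 (SE 0.21). For both genes the shTCTP range enclosed or overlapped the shCtrl range, and shTCTP 2 was the lowest library of the 6. The sign for HSPH1 turned without shCtrl 1 or shTCTP 2 and on the FPKM scale. DNAJB1, the HSP40 partner that loads clients onto HSP70, stood at 203, 241 and 240 CPM in shCtrl and 243, 229 and 256 CPM in shTCTP libraries, a log2 fold change of 0.09 (SE 0.13). TECR, on the opposite strand, overlaps DNAJB1 in the annotation and had 36363 reads over the 6 libraries. Whether strand was used in counting is not given in the sources used here.

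HSPD1, the HSP60 chaperonin of mitochondria, had the lowest fold change of the 10. It stood at 693, 510 and 449 CPM in shCtrl and 433, 388 and 450 CPM in shTCTP libraries. The groups overlapped, because shCtrl 3 lay just below shTCTP 3, and shCtrl 1 was far above all the others. The log2 fold change of -0.38 (SE 0.17, 95% interval -0.73 to -0.03) did not pass the threshold (edgeR adjusted p = 0.405), and it was -0.18 without shCtrl 1. HSPE1, the HSP10 partner that caps HSP60, overlaps HSPD1 on the opposite strand in the annotation and was looked up for that reason after the values of HSPD1 were seen. It stood at 580, 494 and 553 CPM in shCtrl and 569, 540 and 314 CPM in shTCTP libraries, so that the low library was shTCTP 3, which stood apart (log2 fold change -0.19, SE 0.19). HSP90AA1, the stress-inducible HSP90, stood at 448, 427 and 387 CPM in shCtrl and 419, 322 and 468 CPM in shTCTP libraries. Its log2 fold change was -0.06 (SE 0.16, 95% interval -0.39 to 0.27), and the sign turned without shTCTP 2 and on the FPKM scale.

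**Figure D2:**
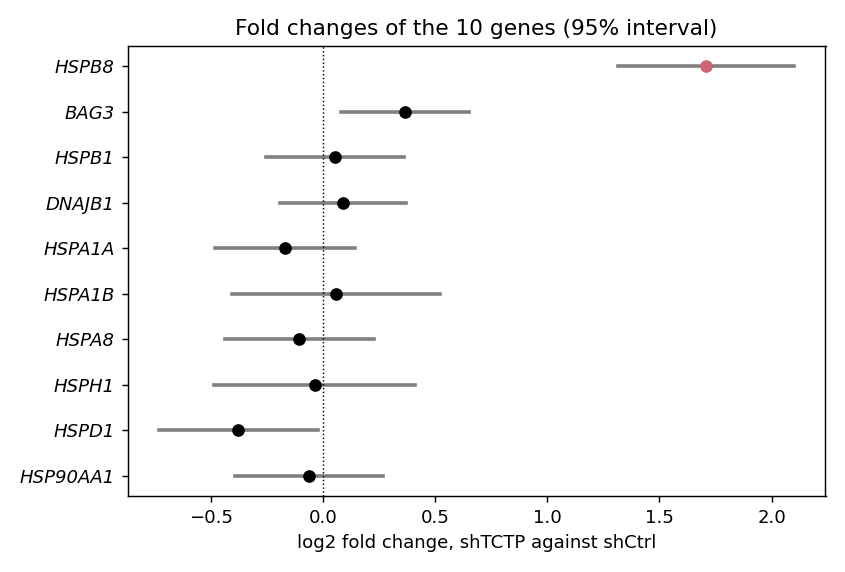
Log2 fold change of each gene, shTCTP against shCtrl (x axis), with its 95% interval as a grey bar, and HSPB8, past the threshold, in red. The interval of HSPB8 runs from 1.32 to 2.10 and lies above those of the other 9 genes, the next being BAG3 with 0.08 to 0.65.

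The contrast that frames these genes sets HSPB8 and BAG3 against 7 HSP60, HSP70, HSP40, HSP110 and HSP90 genes, which are HSPA1A, HSPA1B, HSPA8, HSPH1, DNAJB1, HSPD1 and HSP90AA1. The mean log2 CPM of the 7 was 7.28, 7.37 and 7.26 in shCtrl and 7.29, 6.98 and 7.38 in shTCTP libraries. The groups overlapped, and the low value was that of shTCTP 2, where 6 of the 7 genes lay below their group mean. The difference of the group means was -0.09, smaller than the SD of 0.21 between the shTCTP libraries. The mean of HSPB8 and BAG3 was 3.62, 3.23 and 3.55 log2 CPM in shCtrl and 4.42, 4.60 and 4.49 log2 CPM in shTCTP libraries, higher by 1.04.

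Taking 1 from the other within each library removes the scaling between libraries. HSPB8 and BAG3 stood below the 7 genes by a log2 ratio of -3.66, -4.13 and -3.71 in shCtrl and -2.87, -2.37 and -2.89 in shTCTP libraries, and the groups did not overlap. The ratio was higher by 1.13 in shTCTP cells, between 0.96 and 1.22 with 1 library left out. Most of it came from HSPB8, which against the 7 genes was higher by 1.79, while BAG3 was higher by 0.46 (SD 0.21 between shCtrl and 0.22 between shTCTP libraries). The ratio of HSPB8 to BAG3 itself was higher by 1.33. No test is given for these ratios, because the contrast was chosen with the results known.

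**Figure D3:**
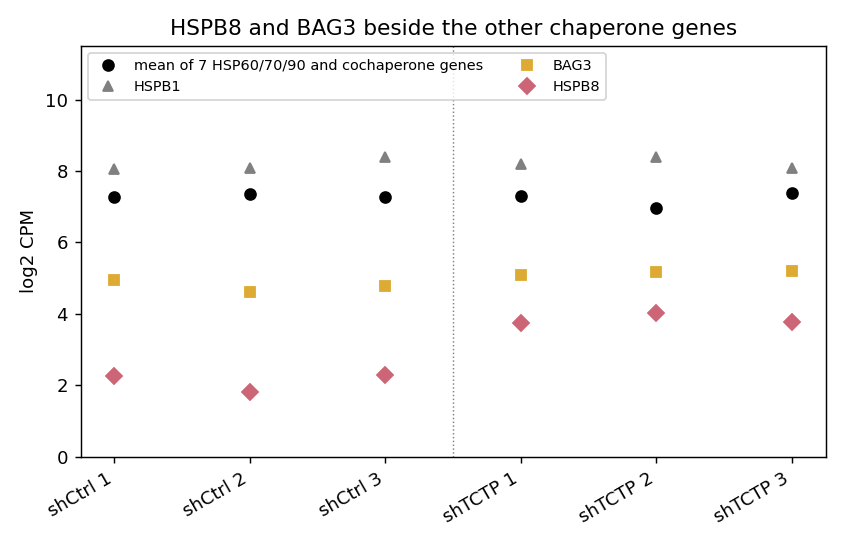
Log2 CPM (y axis) in each of the 6 libraries (x axis) of HSPB8, BAG3, HSPB1 and the mean of the 7 other chaperone genes. HSPB8 steps up between the shCtrl and shTCTP libraries, while the mean of the 7 genes stays between 6.98 and 7.38 with its lowest point in shTCTP 2.

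Levels can be set beside each other between genes only per length, for which the deposited FPKM were used. In shCtrl cells HSPA8 (299 FPKM, 268 to 318), HSPB1 (252, 232 to 280) and HSPD1 (199, 154 to 263) were the highest, and the ranges of neighbours in that order overlapped. HSP90AA1 (96.7) and DNAJB1 (85.8) followed, again with overlapping ranges, then HSPA1A (23.5) and HSPA1B (22.1), which overlapped too. BAG3 stood at 9.96 FPKM, clear of its neighbours, and HSPH1 (2.43, 1.81 to 3.09) and HSPB8 (1.89, 1.49 to 2.18) were the lowest and overlapped. In shTCTP cells HSPB8 stood at 6.66 FPKM (5.74 to 7.22), above HSPH1 at 2.58 FPKM (1.67 to 3.68) with no overlap. The level of HSPB8 in shTCTP cells still lay below that of BAG3 at 13.8 FPKM (12.1 to 16.1), and far below that of HSPB1 at 281 FPKM.

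Other genes of the chaperone system, in 11 lists that leave out the 10 genes, gave the surroundings. They held 117 distinct tested genes, of which 0 passed the threshold by the edgeR test, by DESeq2 or by limma voom, and 5 had an unadjusted p under 0.05 by each of them. Over all tested genes 1.41% passed the threshold and 11.1% had an unadjusted edgeR p under 0.05. The median log2 fold change of the 117 was -0.02. Groups that did not overlap were found for 4 of them higher and 5 lower, against 9.83% and 7.3% of all tested genes. The largest difference among the 117 was that of HSPA6, a strictly inducible HSP70. It had 8, 25 and 18 reads in shCtrl and 40, 66 and 41 reads in shTCTP libraries, which is 0.262, 0.867 and 0.646 CPM against 1.37, 2.22 and 1.38 CPM. The groups did not overlap, at very low levels on both sides. With 8 reads in shCtrl 1, HSPA6 passed the filter on low counts only with the help of its shTCTP libraries. Its values are therefore a description. The log2 fold change of 1.49 (SE 0.39) missed the threshold (edgeR adjusted p = 0.0822), and it passed in 4 of 16 other settings, with an adjusted p of 0.0021 without shTCTP 3 and of up to 0.303 over all 16. Its pseudogene copy HSPA7 had 2 reads over the 6 libraries.

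Among the other small heat shock proteins, 4 of 9 were tested, 0 passed and the median log2 fold change was -0.23. HSPB6 stood at 0.361, 0.416 and 0.359 CPM in shCtrl and 0.206, 0.807 and 1.15 CPM in shTCTP libraries, overlapping (log2 fold change 0.92, SE 0.51). With 10 reads in shCtrl 3, HSPB6 passed the filter on low counts only with the help of its shTCTP libraries. Its values are therefore a description, and so is the list median, which includes them. The lens crystallin gene CRYAA had a log2 fold change of -0.37 (SE 0.23). The remaining tested relatives were CRYAB, at low means of 1.04 CPM in shCtrl and 0.825 CPM in shTCTP libraries (log2 fold change -0.33), and HSPB11 (-0.14). HSPB8 was thus the 1 tested gene of its family past the threshold, and whether it differed from its relatives was not tested. Among 8 BAG proteins and other HSP70 exchange factors the median was -0.04, with the HSP110 relatives HSPA4L at -0.34 and HSPA4 at -0.15. Among 6 other HSP70 genes it was -0.14, with HSPA14 at 0.22 next to HSPA6. Of 22 HSP40 genes 14 were positive, with a median of 0.08. Of these DNAJB5 stood at 3.61, 5.13 and 2.76 CPM in shCtrl and 5.93, 6.36 and 5.64 CPM in shTCTP libraries (log2 fold change 0.64, SE 0.22, edgeR adjusted p = 0.244), and DNAJC13 had a log2 fold change of 0.47 (SE 0.29). The 1 high value of DNAJC13, 5.10 CPM, was that of shTCTP 3, and its log2 fold change without that library was 0.00.

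The 18 tested genes of HSP90 and its cochaperones had a median log2 fold change of -0.03, HSP90AB1, the constitutive HSP90, standing at -0.21 (SE 0.17) and CACYBP at -0.22 (SE 0.15). The 15 genes of chaperonins and prefoldin had a median of -0.08, with the prefoldin subunits PFDN2 at 0.26 and PFDN6 at -0.27. The 12 mitochondrial chaperones and proteases had a median of -0.03, with the exchange factor GRPEL2 at 0.29 and DNAJA3 at 0.15. The 16 chaperones of the endoplasmic reticulum had a median of 0.00, with HSPA5, the HSP70 of that compartment, at -0.27 and PDIA6, a disulphide isomerase, at -0.22. None of the genes named here passed the threshold.

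HSF1, the main activator of heat shock genes, stood at 95.0, 97.4 and 107 CPM in shCtrl and 101, 115 and 105 CPM in shTCTP libraries, a log2 fold change of 0.10 (SE 0.13), which says nothing of its activity. The 5 tested heat shock factors and regulators, HSF1 among them, had a median of 0.02, with HSBP1L1 at 0.27 and HSF2 at -0.27. A list of textbook HSF1 targets held 16 tested genes besides the 10. Of these 7 had a positive log2 fold change, 0 passed and the median was -0.07, HSPA6 being the largest. In the list of autophagy partners of BAG3 and HSPB8, 10 were tested with a median of 0.00. SQSTM1, the cargo receptor p62, stood at 616, 754 and 752 CPM in shCtrl and 1049, 986 and 893 CPM in shTCTP libraries, with no overlap. Its log2 fold change of 0.46 (SE 0.16) missed the threshold (edgeR adjusted p = 0.212) and passed on the FPKM scale only, with limma adjusted p of 0.0204 and 0.0285. NBR1, another cargo receptor, stood at 46.8, 47.6 and 39.5 CPM in shCtrl and 37.9, 30.7 and 35.6 CPM in shTCTP libraries, lower without overlap (log2 fold change -0.36, SE 0.14, edgeR adjusted p = 0.297).

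**Figure D4:**
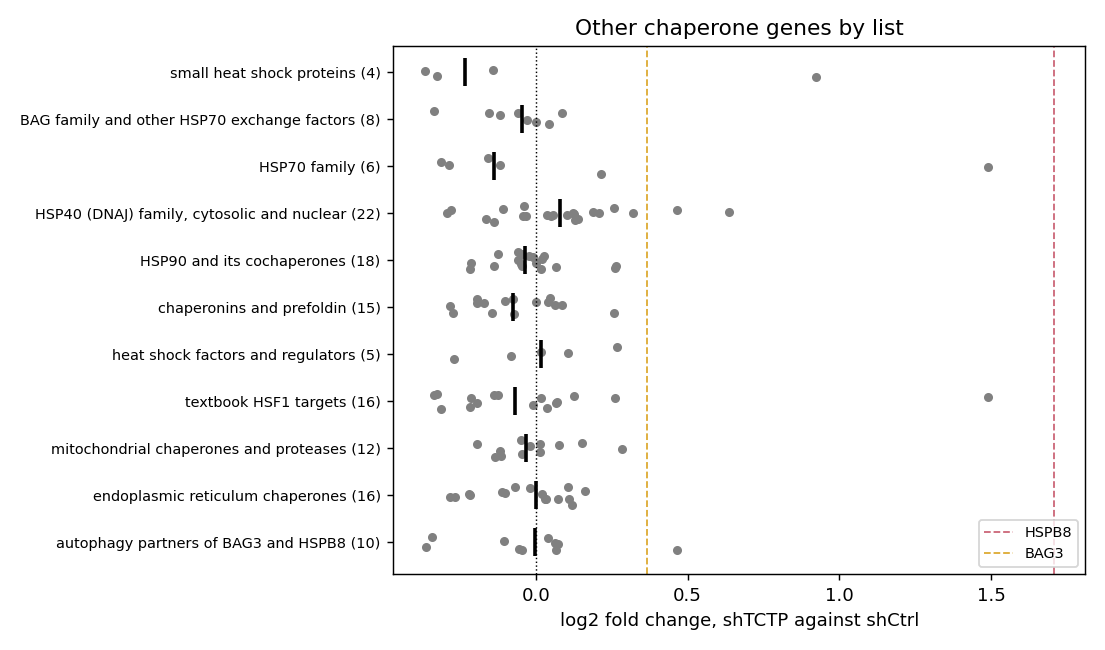
Log2 fold changes (x axis) of the tested genes of each list other than the 10 (grey points, the number in brackets, spread vertically for legibility), with the list median as a black bar and HSPB8 and BAG3 as dashed lines. The medians lie between -0.23 and 0.08, and HSPA6 at 1.49 is the point nearest to HSPB8.

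The genes whose pattern over the 6 libraries was most like that of HSPB8 were ATF3, a stress-induced transcription factor, and the small GTPase genes RND1 and RRAD. Likeness was the root mean square difference of log2 CPM after centring each gene on its own mean, among the 7037 other genes whose mean reached 10 CPM, and it was 0.18, 0.20 and 0.21 log2 units. RND1 stood at 6.72, 7.60 and 7.57 CPM in shCtrl and 21.5, 25.4 and 20.4 CPM in shTCTP libraries. In both genes shTCTP 2 was the highest library, but shCtrl 2 was the lowest for HSPB8 and the highest of the shCtrl libraries for RND1. The likeness was computed on the same step between shCtrl and shTCTP that chose HSPB8, and RND1 reached a mean of 10 CPM only through its shTCTP libraries, so these names are a description. The genes nearest to BAG3 were TOB1, BAIAP2L1 and MTRF1L, at 0.04, 0.05 and 0.05 log2 units. TOB1, an antiproliferative gene, stood at 25.3, 19.5 and 21.2 CPM in shCtrl and 26.2, 28.7 and 31.1 CPM in shTCTP libraries, with shCtrl 2 the lowest as for BAG3. None of these 3 passed the threshold.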

How the data were processed

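Per the labels' protocols, polyadenylated RNA was made into directional libraries and read as 150-base pairs. The authors deposited raw read counts per gene and FPKM per gene for the same 6 libraries. The build was GRCh38 and the tools listed were bcl2fastq, TopHat2 and edgeR, per the submitters' processing notes. Which counter and annotation were used, and whether strand was, is not given in the sources used here.

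Counts were tested with edgeR 4.0.16 (R 4.3.3) by its quasi-likelihood test with robust dispersion, after filterByExpr and TMM, with group as the only term and Benjamini-Hochberg adjustment over all tested genes. Standard errors were derived from the estimate and the F statistic. Log2 CPM for the ratios between genes used a prior count of 2. Coordinates came from GENCODE release 29, promoters from RefSeq. The members and the lists were chosen with earlier results of these data known. Named genes were the 10 members, TPT1, up to 4 called genes or the 2 with the smallest p of each list, and the 3 genes nearest to HSPB8 and to BAG3. HSPE1, HSF1, CRYAB and HSPB11 were added after their values were seen. Alternatives were RLE and upper quartile scaling, other filters, DESeq2 1.42.0, a replicate block, limma 3.58.1 (voom, and log2 FPKM with pseudocounts of 1 and 0.1), a gene length correction, pooled gene copies, and each library left out. The procedure was tested on simulated data. No library repeated another of its own group, where chi-square divided by its degrees of freedom was 13.9 to 85.7. Pairs between the groups were not compared in this way.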

Additional observations from a re-analysis of the deposited data

How the results depend on the processing

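The number of genes changed over the whole table was 200, and it was 317 with no filter, 130 with the replicate block and 79 to 343 with 1 library left out (90, 79 and 101 without shCtrl 1, 2 and 3, and 177, 89 and 343 without shTCTP 1, 2 and 3). HSPB8 was the 1 member past the threshold in all 17 settings for that count, with a log2 fold change of 1.41 to 1.79, and the difference between HSPB8 with BAG3 and the 7 other genes ranged from 0.91 to 1.22. Same-numbered libraries did not deviate together (correlations of -0.23, 0.00 and -0.20, and 0 of 6 libraries correlated best with their own number). The highest correlation, 0.29, was between shCtrl 1 and shTCTP 3, which both held relatively more reads of long genes. The check therefore cannot show that same-numbered libraries were unpaired. The numbers were not taken as pairs, and under the block HSPB8 stood at 1.71. Of 179 alternative values of the 10 members 166 kept their direction and side of the threshold and 13 turned sign, all of them small and none past the threshold. With limma on log2 FPKM, pseudocounts of 0.1 and 1, HSP90AA1 was 0.0284 and 0.0284 and HSPH1 was 0.0431 and 0.0388. With 1 library left out, HSP90AA1 ranged from -0.172 to 0.0629, HSPH1 from -0.255 to 0.158, HSPA1B from -0.156 to 0.274 and HSPB1 from -0.0510 to 0.171. Depth limits HSPA6 and HSPB6, which stayed at or under 2.22 CPM in every library. Adding annotated pseudogenes added at most 0.151% to the reads of a member.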
